A study of Mus musculus with 10 samples.

Results

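The 10 genes described here encode the Wnt and Norrin receptor complex of brain endothelium, 1 of its nuclear factors and genes that its signalling is known to switch on. They were chosen by name, with no measured value in the rule, though earlier results of these data were known. All 10 were among the 27024 genes with values. The receptors are *Fzd4* and *Fzd6*, the co-receptors *Lrp5* and *Lrp6*, the membrane co-activators *Tspan12*, *Adgra2* and *Reck*, the nuclear factor *Lef1*, and the target genes *Axin2* and *Apcdd1*.

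RNA was sequenced from 10 samples of bEnd.3, an immortalised mouse brain endothelial cell line labelled as wild type, so every sample comes from a single line. In 5 samples (replicates 1, 2, 3, 4 and 5) the cells had received saline, and in the other 5 (replicates 1, 2, 3, 5 and 6) they had received StcE, a bacterial protease that cleaves proteins with dense mucin-type O-glycans, at 5 nM. All cells were collected at 16 h. The labels do not say that the samples came from separate cultures, so p-values measure the spread between these samples, which may be technical. In such bulk samples, fewer cells that express a gene and less RNA of it per cell cannot be told apart.

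Frizzled proteins bind secreted Wnt ligands at the cell surface together with LRP5 or LRP6, and the signal keeps beta-catenin from being degraded, so that it enters the nucleus and acts there with TCF and LEF factors. In brain and retinal vessels, Norrin signals through FZD4 with LRP5 and TSPAN12, and WNT7A and WNT7B signal through Frizzled with ADGRA2 (also called GPR124) and RECK. This pathway is known for driving vessel growth into the brain and for building and keeping the blood-brain barrier.

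Between 22184702 and 33610679 fragments per sample were recovered from the deposited values, which are FPKM (fragments on a gene per kilobase, scaled for depth), and 3 fragments on a gene of 1 kilobase corresponded to 0.0857 to 0.131 FPKM. Replicates differed by more than sampling noise. Genes whose FPKM averaged 1 or more over the 10 samples were tested with limma on log2(FPKM + 1), a scale on which differences of low genes are understated. An adjusted p under 0.05 was reached by 1320 of the 11062 genes tested, which is 11.9%, and 709 of them (6.41%) were lower with StcE. Without StcE replicate 3 the number was 793, and without saline replicate 1 it was 838.

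All 12 endothelial markers, among them *Pecam1*, *Cdh5* and *Tek*, were expressed. Their summed level ran from 1740 to 1837 FPKM with saline and from 1646 to 1724 with StcE, which did not overlap. *Cdh5*, the largest part of this sum, was not past the threshold (limma adjusted p = 0.0515). Of the 12, 5 were lower and 1 (*Egfl7*) higher past it, against 709 lower and 611 higher of all 11062 tested genes. The median log2 difference of the 12 was -0.11. The part of this shift in the results below was not tested. Markers of microglia, neurons and oligodendrocytes summed to less than 1 FPKM in every sample. Of the pericyte, astrocyte and fibroblast lists, *Acta2* (3.08 ± 1.18 and 3.19 ± 0.728 FPKM with saline and StcE), *Gja1* (24.4 ± 0.849 and 25.1 ± 0.327) and *Pdgfra* (1.18 ± 0.106 and 1.29 ± 0.129, all SD, n = 5) passed the filter, and none of these differed past the threshold.

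Of the 10 genes, 8 passed the filter on low values and 4 of these were lower with StcE past the threshold: *Fzd4*, *Fzd6*, *Lrp5* and *Apcdd1*. None was higher, against 11.9% of all tested genes called in either direction and 6.41% called lower. All 8 differences were below 0, with a median of -0.16 on the log2 scale beside a median of -6.6e-04 over all tested genes. *Lef1* and *Axin2* lay below the filter, near the limit of detection in both groups. StcE replicate 1 had the lowest value of all 10 samples for 7 of the 8 tested genes, and without it 3 of them passed the threshold. The same number passed in 4 of the 10 fits that left out 1 sample, that fit included, with *Lrp5* losing its call in each.

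**Figure D1:**
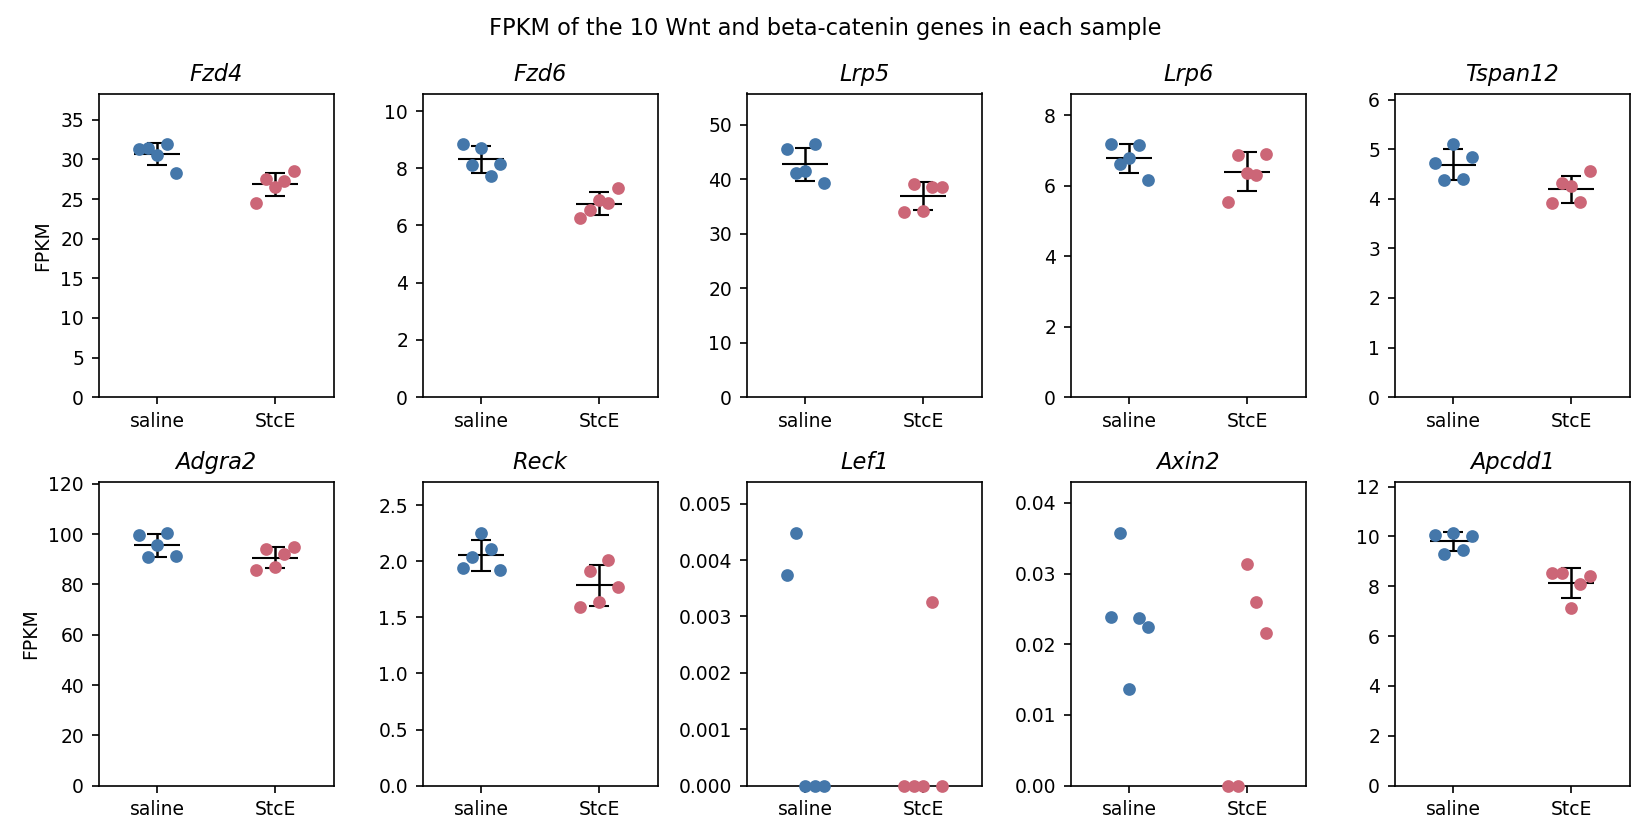
FPKM of the 10 genes (vertical axes, each from 0) in the 5 saline samples (blue points) and the 5 StcE samples (red points), with the mean and SD in black for the 8 tested genes. The groups stand apart without overlap for *Fzd6*, *Lrp5* and *Apcdd1*. Such separation, with StcE lower, held for 5.8% of all tested genes. *Lef1* and *Axin2* stay below 0.04 FPKM.

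Sequence upstream of the start was held for 5 of the 10 genes in RefSeq promoters of GRCm38.p6 (*Fzd4*, *Tspan12*, *Reck*, *Lef1* and *Axin2*). The stretch from 140 to 21 bases before the start is shown for 4 of them, to set the promoter of the called receptor *Fzd4* beside those of its co-activators and of the target *Axin2*. Capitals mark CTTTG or its reverse complement CAAAG, the core letters of the TCF and LEF motif. The *Fzd4* stretch lies at chr7:89404226-89404345 on the plus strand, *Tspan12* at chr6:21852554-21852673 on the minus strand, *Reck* at chr4:43875390-43875509 on the plus strand and *Axin2* at chr11:108920209-108920328 on the plus strand.
Fzd4: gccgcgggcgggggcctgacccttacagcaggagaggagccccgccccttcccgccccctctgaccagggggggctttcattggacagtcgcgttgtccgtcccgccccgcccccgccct
Tspan12: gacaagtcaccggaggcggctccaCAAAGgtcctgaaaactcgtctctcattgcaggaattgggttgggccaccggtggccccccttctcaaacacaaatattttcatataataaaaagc
Reck: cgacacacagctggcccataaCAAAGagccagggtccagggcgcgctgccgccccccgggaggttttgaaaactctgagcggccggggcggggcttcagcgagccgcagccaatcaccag
Axin2: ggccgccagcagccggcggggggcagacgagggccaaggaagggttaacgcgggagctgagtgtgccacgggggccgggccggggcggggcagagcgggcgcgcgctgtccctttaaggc

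Over the 250 bases before the start, searched on both strands, *Tspan12* and *Reck* each held 1 match to CTTTG and *Fzd4* and *Axin2* held 0, while the 4 starts of *Lef1* held 1 to 3. These letters occur in 48.6% of the 32851 promoters of that length. The longer form CTTTGAT, which contains CTTTG, was found in 0 of these windows and in 3.21% of all promoters. The GC box GGGCGG, present in 32.7% of all promoters, had 7 matches upstream of *Fzd4*, 2 upstream of *Reck* and of *Axin2*, and 0 upstream of *Tspan12*. The *Fzd4* window was 72.8% G and C and the *Tspan12* window 42.0%, against a median of 52.4% over all promoters. Such matches describe letters in a window and no binding was measured.

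The receptor *Fzd4* (chromosome 7, 89404355 to 89413134, GRCm38) encodes the Frizzled that binds Norrin. With saline it was at 31.3, 31.4, 30.5, 31.9 and 28.3 FPKM in replicates 1 to 5. With StcE it was at 24.5, 27.6, 26.5, 27.2 and 28.5 FPKM in replicates 1, 2, 3, 5 and 6. A single pair overlapped, since saline replicate 5 lay just below StcE replicate 6. *Fzd4* fell from 30.7 ± 1.43 to 26.9 ± 1.48 FPKM (SD, n = 5 each), a log2 difference of -0.19 (SE 0.0419, 95% interval -0.28 to -0.094, limma adjusted p = 0.0163; exact two-sided permutation p = 0.0159). Without StcE replicate 1, its lowest sample, the log2 difference was -0.15 (limma adjusted p = 0.0261).

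*Fzd6* (chromosome 15, 39006034 to 39038188) encodes another Frizzled, best known for its part in planar cell polarity. Its level with saline was 8.84, 8.10, 8.72, 7.73 and 8.16 FPKM in replicates 1 to 5. Its level with StcE was 6.25, 6.53, 6.91, 6.78 and 7.31 FPKM. All StcE values were below all saline values, which held for 5.8% of all tested genes. *Fzd6* fell from 8.31 ± 0.463 to 6.75 ± 0.402 FPKM (SD, n = 5 each), the largest log2 difference among the members tested at -0.26 (SE 0.0440, 95% interval -0.36 to -0.17, limma adjusted p = 0.00299; exact permutation p = 0.00794, the smallest that 5 samples against 5 allow). Over 3.15% of its exon length it overlaps *Gm26704*, a gene on the opposite strand, and whether the counting used strand is not given in the sources used here. The log2 ratio of *Fzd4* to *Fzd6*, taken within each sample from FPKM + 1, was 1.77 ± 0.103 with saline and 1.85 ± 0.0489 with StcE (SD, n = 5), which did not differ past the threshold (difference 0.078, exact permutation p = 0.159 before and after adjustment over 2 ratios).

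The co-receptor *Lrp5* (chromosome 19, 3584828 to 3686564) takes part in both Norrin and Wnt signalling. With saline its FPKM was 45.5, 41.2, 41.5, 46.5 and 39.4 in replicates 1 to 5. With StcE its FPKM was 33.9, 39.1, 34.2, 38.7 and 38.5. All StcE values were below all saline values, as for 5.8% of all tested genes. The lowest saline sample (replicate 5) and the highest StcE sample (replicate 2) lay close together. *Lrp5* fell from 42.8 ± 3.03 to 36.9 ± 2.59 FPKM (SD, n = 5 each), a log2 difference of -0.21 (SE 0.0551, 95% interval -0.33 to -0.089, limma adjusted p = 0.0310; exact permutation p = 0.00794). This call was lost in 4 of the 10 fits that left out 1 sample, with a limma adjusted p of 0.0751 without saline replicate 1, 0.0661 without saline replicate 4, 0.0704 without StcE replicate 1 and 0.0779 without StcE replicate 3.

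*Lrp6* (chromosome 6, 134446476 to 134566965), the close relative of *Lrp5*, was expressed at a lower level. Its FPKM with saline was 7.19, 6.62, 6.78, 7.15 and 6.18 in replicates 1 to 5. Its FPKM with StcE was 5.56, 6.88, 6.37, 6.30 and 6.91, so that StcE replicate 1 alone lay below all saline samples. The means were 6.78 ± 0.415 and 6.40 ± 0.550 FPKM (SD, n = 5 each) and the log2 difference of -0.074 was not past the threshold (95% interval -0.19 to 0.046, limma adjusted p = 0.417; exact permutation p = 0.262). The balance between both co-receptors was therefore tested directly. Within samples the log2 ratio of *Lrp5* to *Lrp6*, from FPKM + 1, ran from 2.45 to 2.54 with saline and from 2.25 to 2.44 with StcE, without overlap. Its mean fell from 2.49 ± 0.0358 to 2.36 ± 0.0744 (SD, n = 5 each; log2 difference -0.14, exact permutation p = 0.00794, adjusted over 2 ratios p = 0.0159). This corresponds to a ratio of FPKM + 1 of 5.62 with saline and 5.12 with StcE. The difference stayed below 0 in each of the 10 fits that left out 1 sample, between -0.16 and -0.11. The lack of overlap depended on the added 1. In plain FPKM the ratio was higher in StcE replicate 5 than in saline replicate 3, so the groups overlapped. The log2 difference was then -0.13 (exact permutation p = 0.0317, adjusted over 2 ratios).

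*Adgra2* (chromosome 8, 27085583 to 27123436) encodes an adhesion receptor required for WNT7A and WNT7B signalling in brain vessels, and it had the highest level of the 10 genes. With saline it was at 99.7, 90.9, 95.6, 101 and 91.1 FPKM, and with StcE at 85.6, 93.9, 86.8, 92.1 and 94.7 FPKM. StcE replicates 1 and 3 lay below all saline samples, saline replicates 1, 3 and 4 above all StcE samples, and the rest in a common range. The means of 95.6 ± 4.57 and 90.6 ± 4.15 FPKM (SD, n = 5 each) gave a log2 difference of -0.076 that was not past the threshold (95% interval -0.16 to 0.0091, limma adjusted p = 0.231; exact permutation p = 0.119).

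*Reck* (chromosome 4, 43875530 to 43944806) encodes the membrane-anchored partner of ADGRA2 that recognises WNT7 ligands. Its level was low, at 1.94, 2.04, 2.25, 2.11 and 1.92 FPKM with saline and 1.59, 1.92, 1.64, 2.01 and 1.77 FPKM with StcE. Between 179 and 337 fragments per sample lay behind these values. StcE replicate 5 lay among the saline samples and the other 4 StcE samples below the lowest of them. The means were 2.05 ± 0.136 and 1.78 ± 0.180 FPKM (SD, n = 5 each), with a log2 difference of -0.13 that did not pass the threshold over all genes (95% interval -0.25 to -0.017, limma adjusted p = 0.128; exact permutation p = 0.0317, not adjusted).

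*Tspan12* (chromosome 6, 21771395 to 21852515) encodes a tetraspanin that joins the FZD4 complex and strengthens Norrin signalling. Saline samples were at 4.73, 4.37, 5.10, 4.40 and 4.85 FPKM, and StcE samples at 3.92, 4.32, 4.25, 3.93 and 4.56 FPKM. StcE replicate 6 lay among the saline samples and the other 4 below all of them. The means were 4.69 ± 0.309 and 4.19 ± 0.274 FPKM (SD, n = 5 each), with a log2 difference of -0.13 that also missed the threshold over all genes (95% interval -0.23 to -0.027, limma adjusted p = 0.0965; exact permutation p = 0.0397, not adjusted).

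*Lef1* (chromosome 3, 131110471 to 131224356), a transcription factor that acts with beta-catenin, was at the limit of detection. A single fragment was recovered in saline replicates 1 and 2 (0.00374 and 0.00449 FPKM) and in StcE replicate 5 (0.00325 FPKM), and the gene was listed at 0 in the other 7 samples. The 2 fragments with saline have an exact Poisson 95% interval of 0.242 to 7.22 and the 1 fragment with StcE an interval of 0.0253 to 5.57. A level below the 0.00975 to 0.0149 FPKM that 3 fragments correspond to on this gene could not be told from 0, and no difference between groups was detectable at this depth. Intervals and limits from fragments cover counting error only, and *Lef1* shares 34.8% of its transcript with the overlapping antisense gene *Gm43352*.

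*Axin2* (chromosome 11, 108920349 to 108950783), a feedback inhibitor that is the most used reporter gene of beta-catenin signalling, was also close to 0. With saline it was at 0.0239, 0.0358, 0.0136, 0.0238 and 0.0224 FPKM, from 2 to 5 fragments per sample. With StcE it was listed at 0 in replicates 1 and 2 and at 0.0314, 0.0259 and 0.0216 FPKM in replicates 3, 5 and 6. The group totals were 17 fragments with saline (exact Poisson 95% interval 9.90 to 27.2) and 14 with StcE (7.65 to 23.5). No difference was detectable (exact permutation p = 0.286), and 3 fragments corresponded to 0.0156 to 0.0238 FPKM on this gene.

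*Apcdd1* (chromosome 18, 62922231 to 62961179), which encodes a membrane inhibitor of Wnt signalling and is itself a known target of the pathway in brain vessels, was the more abundant target gene per length. Its FPKM with saline was 10.1, 9.30, 10.2, 9.46 and 10.0 in replicates 1 to 5. Its FPKM with StcE was 8.52, 8.54, 7.11, 8.11 and 8.43. The StcE values were all below the saline values, as for 5.8% of all tested genes, and StcE replicate 3 lay furthest below. *Apcdd1* fell from 9.80 ± 0.391 to 8.14 ± 0.603 FPKM (SD, n = 5 each), a log2 difference of -0.24 (SE 0.0464, 95% interval -0.34 to -0.14, limma adjusted p = 0.00655; exact permutation p = 0.00794). Without StcE replicate 3 the log2 difference was -0.20 (limma adjusted p = 0.00587).

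**Figure D2:**
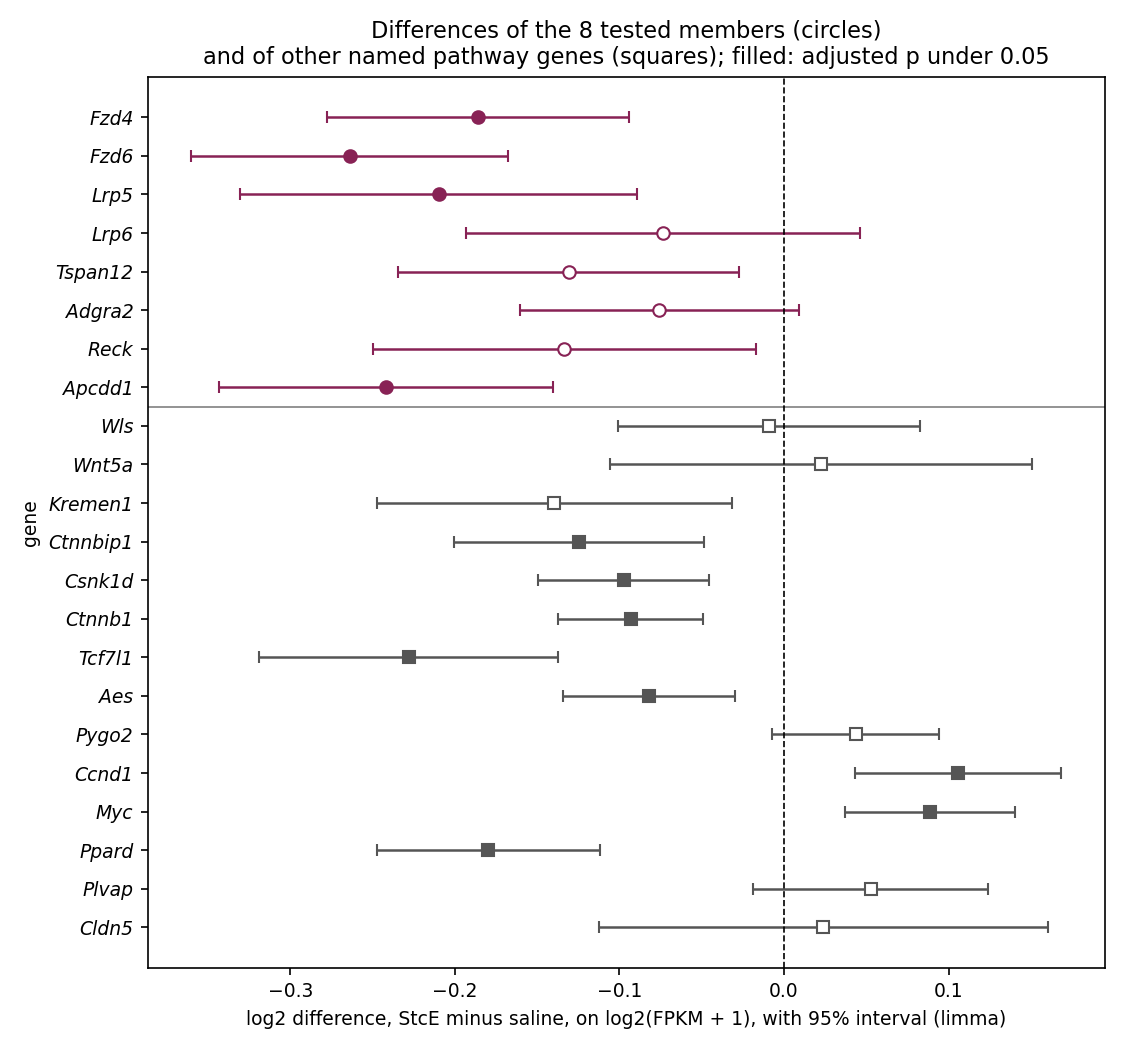
Log2 difference, StcE minus saline, on log2(FPKM + 1), with 95% intervals from limma, for the 8 tested members (circles) and the other pathway genes named in the text (squares), filled where the adjusted p was under 0.05. All 8 circles lie left of 0, 4 of them filled, between -0.26 for *Fzd6* and -0.074 for *Lrp6*.

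By FPKM, which is per length and so compares genes, the members stood in the same order in both groups, *Adgra2*, *Lrp5*, *Fzd4*, *Apcdd1*, *Fzd6*, *Lrp6*, *Tspan12*, *Reck*, *Axin2* and *Lef1* from highest to lowest. With saline no neighbours in this order overlapped in range. With StcE the ranges of *Apcdd1* and *Fzd6*, of *Fzd6* and *Lrp6*, and of *Axin2* and *Lef1* overlapped. *Apcdd1* still lay above *Fzd6* in each of the 5 StcE samples, *Fzd6* and *Lrp6* changed places between samples, and *Axin2* and *Lef1* were both listed at 0 in StcE replicates 1 and 2. The mean level of *Adgra2* was above that of 98.1% of all 27024 genes, that of *Fzd4* above 92.6%, and that of *Lef1* above 1.81%. Among replicates of a group the tested members varied little, with a coefficient of variation of 3.99% to 7.09% with saline and 4.58% to 10.1% with StcE.

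**Figure D3:**
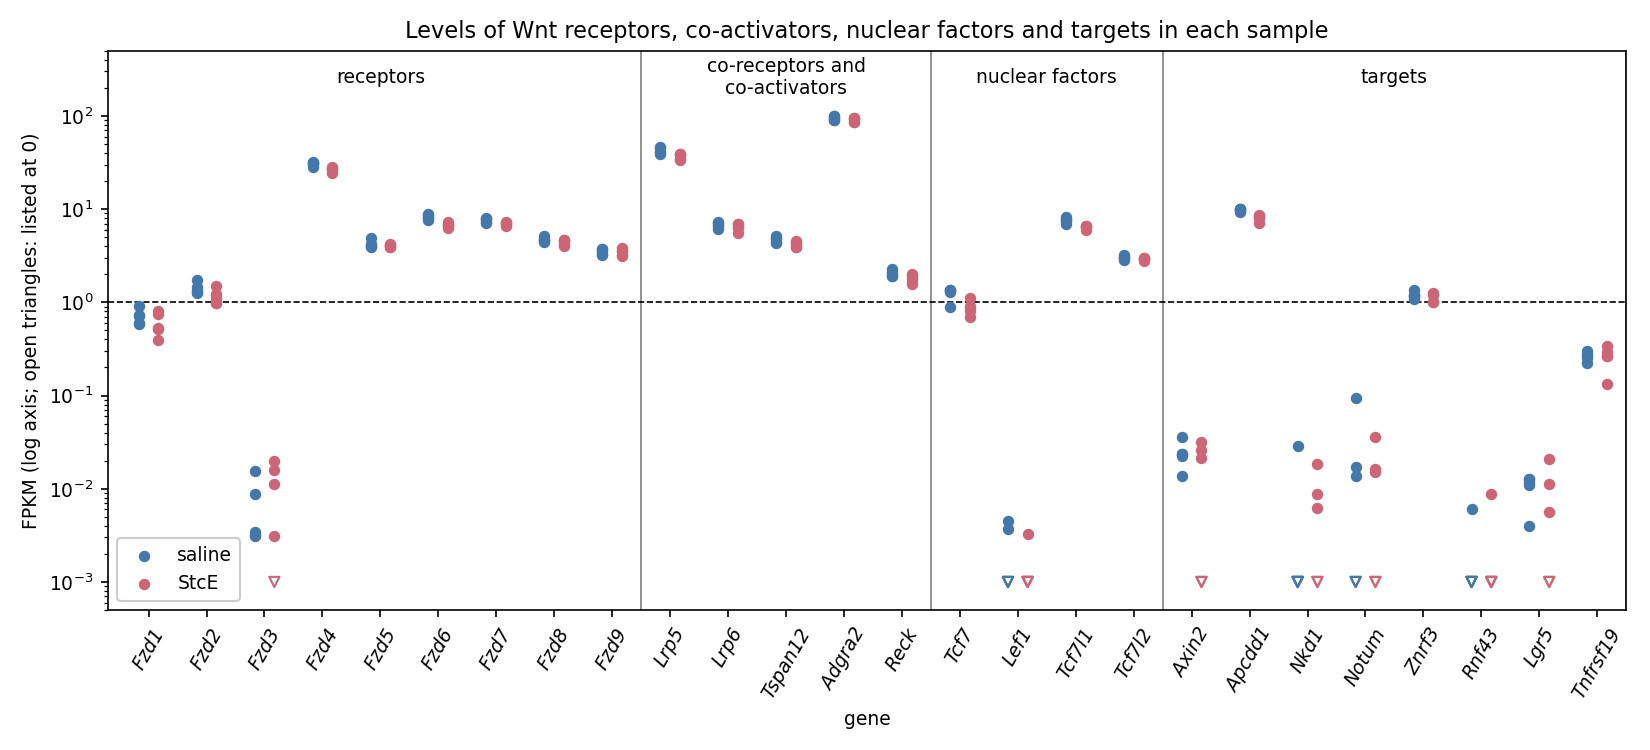
FPKM (log axis) of receptors, co-receptors and co-activators, nuclear factors and a selection of target genes in each saline sample (blue) and StcE sample (red), with open triangles at the bottom for samples listed at 0 and a dashed line at 1 FPKM, the filter on the mean. The selection leaves out, among others, the expressed targets *Sp5*, *Bambi*, *Ccnd1* and *Myc*. *Fzd4* stands above the other Frizzled genes in every sample, and *Lef1* and *Axin2* lie far below *Tcf7l1* and *Apcdd1*.

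The other genes of the pathway were counted by role in lists of 128 genes in all, members included, of which 117 had values and 62 passed the filter. Past the threshold, 10 were lower and 2 higher with StcE, with a median log2 difference of -0.042. Without the members, 6 of 54 were lower (11.1%, against 6.41% of all tested genes) and 2 higher, with a median of -0.037. Of all 11062 tested genes, 709 were lower and 611 higher, which is 11.9% in either direction. The first counts moved with single samples, to 7 past the threshold without StcE replicate 3 or StcE replicate 5, and to 6 lower without saline replicate 1 or StcE replicate 3.

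Among receptors, co-receptors and co-activators, all 13 tested genes had a difference below 0, as had 5576 of all 11062 tested genes, and the list median was -0.12. The 3 that were called, *Fzd4*, *Fzd6* and *Lrp5*, are members. Of the other Frizzled genes, *Fzd7*, named after its values were seen, came closest to the threshold, at 7.63 ± 0.374 FPKM with saline and 6.95 ± 0.261 with StcE (SD, n = 5; log2 difference -0.12, limma adjusted p = 0.0578). *Fzd4* was the highest of the 9 Frizzled genes measured in every sample, followed by mean level by *Fzd6* with saline and by *Fzd7* with StcE.

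On the ligand side, 22 of the 26 listed genes had values, 3 of these passed the filter on low values and 0 passed the threshold, although 1 of the 3 (*Wnt7a*) had an unadjusted limma p under 0.05. *Wls*, which carries Wnt proteins to the cell surface, was at 10.1 ± 0.664 FPKM with saline and 10.0 ± 0.386 with StcE (SD, n = 5; limma adjusted p = 0.917). *Wnt5a*, a ligand known mostly for signalling without beta-catenin, was at 1.67 ± 0.133 and 1.72 ± 0.188 FPKM (limma adjusted p = 0.842). *Wnt7a*, the ligand read by the ADGRA2 and RECK complex and named after its values were seen, was at 0.996 ± 0.218 and 1.31 ± 0.195 FPKM (log2 difference 0.21, 95% interval 0.027 to 0.39, limma adjusted p = 0.128; exact permutation p = 0.0556). The Norrin gene *Ndp* was among the listed genes that had no values under their name. Of the 6 tested inhibitors and receptor turnover genes, *Apcdd1* alone was called, and the Dickkopf co-receptor *Kremen1* was at 2.87 ± 0.218 and 2.51 ± 0.170 FPKM (log2 difference -0.14, limma adjusted p = 0.0901, which became 0.0497 without saline replicate 5 and 0.0482 without StcE replicate 6).

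In the cytoplasmic relay, 3 of 17 tested genes were lower and 0 higher (median -0.036). *Ctnnb1*, which encodes beta-catenin itself, was at 204, 196, 204, 197 and 204 FPKM with saline in replicates 1 to 5 and at 189, 189, 186, 191 and 187 FPKM with StcE. The groups did not overlap, as for 5.8% of all tested genes with StcE lower, and each group spanned a narrow range. *Ctnnb1* fell from 201 ± 3.94 to 188 ± 2.11 FPKM (SD, n = 5 each; log2 difference -0.093, SE 0.0201, limma adjusted p = 0.0128). *Csnk1d*, a casein kinase, fell from 50.7 ± 1.22 to 47.3 ± 1.06 FPKM (log2 difference -0.097, limma adjusted p = 0.0228), and *Ctnnbip1*, an inhibitor that keeps beta-catenin from TCF factors, fell from 8.73 ± 0.458 to 7.92 ± 0.189 FPKM (log2 difference -0.12, limma adjusted p = 0.0388). The call of *Ctnnb1* held in all 10 fits that left out 1 sample, while that of *Csnk1d* was lost in 4 (limma adjusted p up to 0.0592) and that of *Ctnnbip1* in 9 (up to 0.0869).

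Of the nuclear factors, 2 of 12 tested genes were lower and 0 higher (median -0.070). *Tcf7l1*, the TCF factor with the highest level here and one known mainly as a repressor, was at 7.43, 7.70, 8.29, 7.82 and 6.92 FPKM with saline and at 6.38, 6.55, 5.996, 6.37 and 6.53 FPKM with StcE. No StcE sample reached the saline range, which held for 5.8% of all tested genes with StcE lower. *Tcf7l1* fell from 7.63 ± 0.506 to 6.36 ± 0.221 FPKM (SD, n = 5 each; log2 difference -0.23, SE 0.0416, limma adjusted p = 0.00491) and kept the call in all 10 fits that left out 1 sample. The relatives *Tcf7l2* (3.04 ± 0.140 and 2.92 ± 0.104 FPKM, limma adjusted p = 0.452) and *Tcf7* (1.25 ± 0.207 and 0.876 ± 0.151 FPKM, log2 difference -0.26, limma adjusted p = 0.0556), named after their values were seen, did not pass. *Aes*, a short Groucho-type corepressor, fell from 142.5 ± 3.20 to 134.6 ± 3.33 FPKM (limma adjusted p = 0.0464), a call lost in 8 of the 10 fits (up to 0.106). *Pygo2*, a coactivator of beta-catenin, was at 24.4 ± 0.570 and 25.2 ± 0.448 FPKM (limma adjusted p = 0.249).

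Common target genes moved in both directions, with 1 of 7 tested genes lower (*Apcdd1*), 2 higher and a median of -0.037. *Ccnd1*, which encodes cyclin D1, rose from 705 ± 22.8 to 759 ± 20.9 FPKM (SD, n = 5 each; log2 difference 0.11, SE 0.0287, limma adjusted p = 0.0355). *Myc* rose from 43.9 ± 0.959 to 46.8 ± 1.08 FPKM (log2 difference 0.089, SE 0.0235, limma adjusted p = 0.0319). Both are controlled by many inputs besides beta-catenin. Both calls depended on which samples were kept and were lost in 7 of the 10 fits for *Ccnd1* (up to 0.0817) and in 8 for *Myc* (up to 0.0755). Of the tested targets that were not called, *Sp5* was above 0 (log2 difference 0.11, limma adjusted p = 0.195). *Bambi* (-0.10, limma adjusted p = 0.215), *Znrf3* (-0.037, limma adjusted p = 0.714) and *Tcf7* (-0.26, limma adjusted p = 0.0556) were below 0.

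Among barrier genes known to depend on endothelial beta-catenin, 1 of 7 tested genes was lower and 0 higher, with a median of 0.024. The list pools genes of the barrier with *Plvap*, which mature barrier endothelium lacks, so the sign of this median has no single reading. *Ppard*, a nuclear receptor, fell from 6.38 ± 0.280 to 5.51 ± 0.0848 FPKM (SD, n = 5 each; log2 difference -0.18, SE 0.0309, limma adjusted p = 0.00360). Its groups did not overlap, as for 5.8% of all tested genes with StcE lower. The call held in all 10 fits that left out 1 sample. *Cldn5*, the main tight junction claudin of the barrier, was at 309.6 ± 19.8 FPKM with saline and 315.4 ± 27.5 with StcE (log2 difference 0.024, 95% interval -0.11 to 0.16, limma adjusted p = 0.842). *Plvap*, a protein of fenestrated and leaky vessels that mature barrier endothelium lacks, was at 1038 ± 48.8 and 1076 ± 21.9 FPKM (log2 difference 0.053, limma adjusted p = 0.325). Its level exceeded that of *Cldn5* in every sample.

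**Figure D4:**
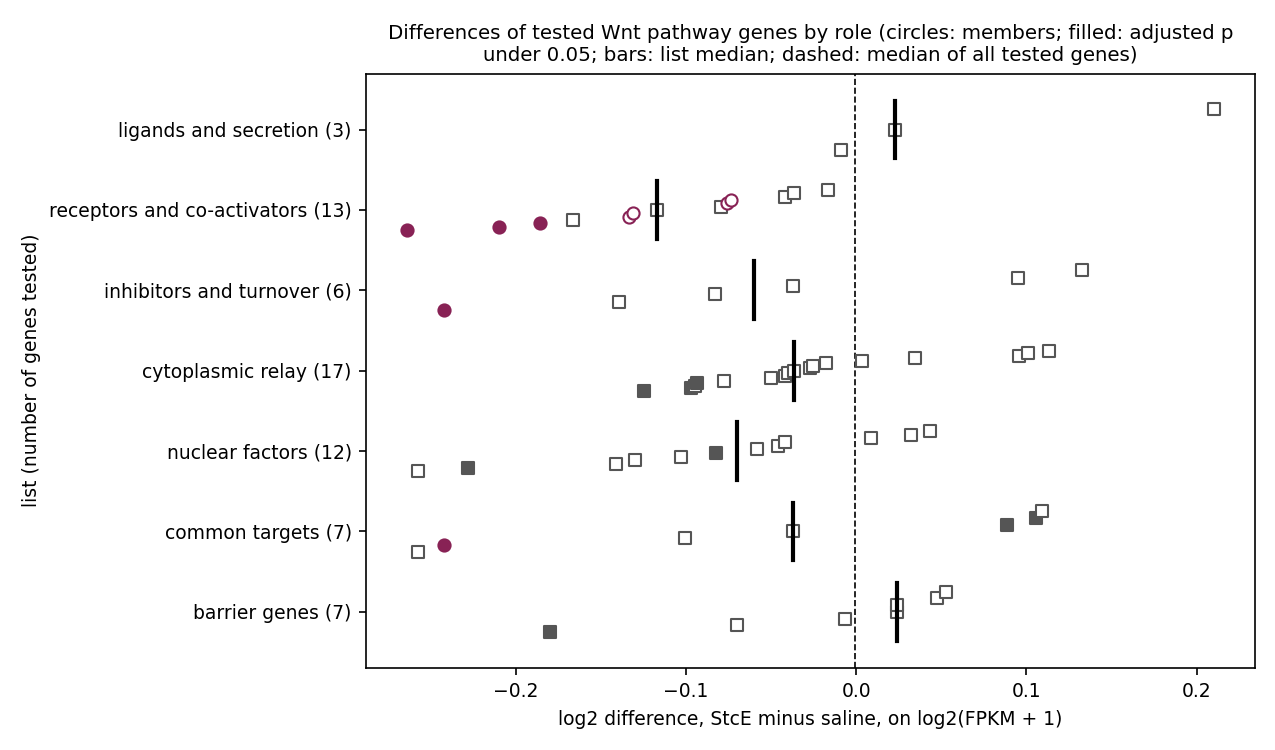
Log2 differences, StcE minus saline, on log2(FPKM + 1), of the tested pathway genes by role (circles for members, squares for other genes, filled where the adjusted p was under 0.05), with a bar at each list's median and a dashed line at the median of all tested genes. The 13 receptor genes all lie below 0 with a median of -0.12, whereas the targets and barrier genes lie on both sides.

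As a description, the tested genes whose log2(FPKM + 1) followed each member most closely over the 10 samples were listed, and these correlations include the difference between groups. For *Fzd4* they were *Lrrc58* (Pearson's r = 0.984) and *Fnbp1* (0.979). For *Fzd6* they were the Notch ligand *Jag2* (0.972) and *Pcx* (0.962), and for *Lrp5* *Smurf1* and the endothelial adhesion gene *Pecam1* (both 0.978). *Apcdd1* was most like *Hey1*, a Notch target (0.957), and *Sept8* (0.947). The closest genes were *Kidins220* and *Polr1a* for *Lrp6* (0.965 and 0.960), *Emc9* and *Ceacam1* for *Tspan12* (0.942 and 0.938), *Zc3h7b* and *Myh9* for *Adgra2* (0.972 and 0.965), and *Tmem106b* and *Ints5* for *Reck* (0.959 and 0.954). Each was picked as the highest among all tested genes and shares its samples with the member, so the size of r is no test.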

How the data were processed

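Poly-adenylated RNA of 10 bEnd.3 samples was made into directional libraries. Per the submitters' processing notes, reads were handled with HISAT2 2.0.5, featureCounts 1.5.0-p3 and DESeq2 1.32.0 on mm10 (GRCm38). The annotation release is not given in the sources used here. The authors deposited 1 FPKM column for each sample. Of the rows, 27024 named a gene and 22874 had no gene name. With exon lengths of GENCODE vM21, 96.5% of values above 0 were whole fragments, within 0.02 of a whole number or 1e-05 of the value for large ones. The scale of each sample followed its size factor to within 0.0447%, so the deposited FPKM already carried a normalisation between samples. *Apcdd1* was not whole with this length.

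Groups came from the labels. Rows averaging 1 FPKM or more were fitted on the log2(FPKM + 1) scale by limma (3.58.1, R 4.3.3; lmFit, eBayes with trend, condition as the sole term, Benjamini-Hochberg over 11062 rows). The fit was also run on simulated data with independent noise for each gene and sample, which hold no shared batch. For single genes and ratios, exact permutation tests (two-sided) ran over 252 arrangements (Python 3.11.15, numpy 2.4.6, scipy 1.17.1, pandas 2.3.3). Near-identical copies (at least 95% identity over 150 bases) were searched with BLAST 2.17.0. Promoters came from RefSeq (GRCm38.p6).

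The members and the lists were chosen with earlier results of these data known. Genes named are the members, for each pathway list up to 4 genes past the threshold per direction and the 2 with the highest mean, and the 2 genes most correlated with each tested member. Alternatives were a pseudocount of 0.1, a minimum of 0.1 or no filter, other scalings, other variance models, limma's array weights, a block for the replicate number, and each sample left out.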

Additional observations from a re-analysis of the deposited data

Results flagged for a closer look

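In 2 of 52 groups of samples examined, 1 sample stood apart from the other 4 by Dixon's criterion, where chance gives about 2.6. *Cldn5* was at 267.1 FPKM in StcE replicate 2, against 320.3 to 335.5 FPKM in the other StcE samples. *Lef1* was at 0.00325 FPKM in StcE replicate 5, a single fragment, and listed at 0 in the other StcE samples.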

How the results depend on the processing

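The 8 tested members kept a difference below 0 in all 168 refits (21 alternatives for each). Many of these refits could not change a sign. Another filter, another variance model or scaling by median of ratios left the differences as they were. The replicate block gave the same differences as its 8 samples without the block. Over all genes, 1320 passed the threshold as reported, 801 with no filter and 793 to 1255 with 1 sample left out. With the replicate block the total was 349, and in the same 8 samples without the block it was 885. The number of members past the threshold was 4 as reported, 2 with no filter and 3 to 4 with 1 sample left out. With the replicate block the number was 1, and in the same 8 samples without the block it was 3. The number of pathway genes was 12 as reported, 1 with the block, 7 in the same 8 samples without the block and 7 to 11 with 1 sample left out. These are totals of separate fits, and the genes behind them need not be the same.

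With no filter, which tests more genes, the limma adjusted p was 0.0508 for *Fzd4* (log2 difference -0.19) and 0.0984 for *Lrp5* (-0.21). With the replicate block over 8 samples it was 0.0905 for *Fzd4* (-0.19), 0.168 for *Lrp5* (-0.20) and 0.0723 for *Apcdd1* (-0.27), and the log2 ratio of *Lrp5* to *Lrp6* differed by -0.12 (exact sign-flip p = 0.125, the smallest that 4 pairs allow). *Lrp5* was at -0.20 (limma adjusted p = 0.0715) in these samples without the block, and between -0.24 and -0.18 with 1 sample left out. The *Fzd4* to *Fzd6* ratio differed by 0.056 to 0.12 with 1 sample left out, and past the threshold without saline replicate 4 (0.12, exact permutation adjusted p = 0.0476). Samples of equal replicate number were not more alike in their deviations from the group means. Their correlations were -0.097 to 0.054 over 4 pairs, and 0 saline samples were closest to their own number. The labels do not say what the numbers stand for. With 4 pairs, whether equal numbers shared a plate, day or batch could not be judged. The cause of the changes between settings was not tested. Scaling by total fragments was chosen after seeing the data. Genes under 1 FPKM, *Lef1* and *Axin2* among them, are limited by depth.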

Other observations

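Below the filter on low values, *Mfsd2a*, a lipid transporter of the blood-brain barrier that was singled out after its values were seen, was at 0.599, 0.526, 0.517, 0.291 and 0.530 FPKM with saline and at 0.831, 0.836, 0.743, 0.850 and 0.916 FPKM with StcE. The StcE values did not overlap the saline values (exact two-sided permutation p = 0.00794, not adjusted). The share of all genes below the filter that separate in this way was not computed. *Ocln*, a barrier gene also below the filter and also named after its values were seen, went the other way. It was at 0.799 ± 0.0711 FPKM with saline and 0.588 ± 0.0831 with StcE, with overlap (SD, n = 5; exact permutation p = 0.0159, not adjusted). *Abcb1a*, which encodes the drug efflux pump of the barrier, was at 0.244 ± 0.0516 FPKM with saline and 0.227 ± 0.0837 with StcE (SD, n = 5; exact permutation p = 0.659).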
